A study of Homo sapiens with 6 samples.

Results

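The genes described here are 8 Toll-like receptors (TLR1, TLR2, TLR4, TLR5, TLR6, TLR7, TLR8 and TLR9), the adaptor MYD88 and the TLR4 co-receptor LY96. They were chosen by gene symbol, with earlier results of these data known. All 10 were found among the 58735 genes of the deposited count table. The counts came from mRNA sequencing of MOLM-13, an established human acute myeloid leukaemia line of monocytic type with a KMT2A-MLLT3 fusion gene and a FLT3 internal tandem duplication. The cells were labelled wild type and were either exposed to 8p at 3.5 nM for 48 hours (n = 3) or left untreated for the same 48 hours (n = 3). The labels describe 8p as an inhibitor of the kinases RET and CDK8 and give its half-maximal inhibitory concentration as 7 nM. The 3 libraries of each group were labelled as independent biological replicates of 1 cell line. Whether solvent was added to the untreated cells is not stated in the labels.

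Toll-like receptors are membrane proteins that recognise conserved microbial molecules and start innate immune signalling. TLR1, TLR2 and TLR6 sense bacterial lipopeptides at the cell surface, with TLR2 pairing with either of the others, TLR4 senses lipopolysaccharide together with LY96 (MD-2), and TLR5 senses flagellin. TLR7 and TLR8 sense single-stranded RNA and TLR9 senses unmethylated CpG DNA in endosomes, and all of these receptors signal through MYD88, which recruits the IRAK kinases. Monocytes and macrophages carry most of the surface receptors and TLR8, whereas TLR7 and TLR9 are best known from plasmacytoid dendritic cells and B cells.

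Sequences bear on how TLR1, TLR6 and TLR8 can be read in these data. TLR1 and TLR6 lie side by side on chromosome 4 and their coding sequences are identical in some stretches, so short reads from those stretches can match both genes. Their longest identical stretch in GENCODE 29 transcripts is 218 bases long and lies in the coding sequence of both genes on the minus strand, at chr4:38797236-38797453 in TLR1 and at chr4:38827863-38828080 in TLR6 (GRCh38). It is shown because a read that falls inside it cannot be assigned to either gene.
TLR1 and TLR6 shared run: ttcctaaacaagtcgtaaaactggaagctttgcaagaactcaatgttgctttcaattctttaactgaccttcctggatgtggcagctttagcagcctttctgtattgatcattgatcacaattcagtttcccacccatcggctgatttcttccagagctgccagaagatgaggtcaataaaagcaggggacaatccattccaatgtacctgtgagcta
Of the 50-base words in TLR1 transcripts, 5.33% also occurred in TLR6, and 4.10% of those in TLR6 occurred in TLR1. TLR8, MYD88 and LY96 shared no 50-base word with any other gene.

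Promoter sequence was taken from RefSeq (GRCh38.p14) for 7 of the 10 genes, as the 250 bases before the transcription start and the first 50 bases after it. TLR1, TLR7 and LY96 had no entry. The 250 bases before the start are shown for TLR8 (chrX:12906370-12906619, plus strand) and TLR6 (chr4:38856818-38857067, minus strand), the 2 of the 7 windows that held the motif TTNNGNAA of the C/EBP family of myeloid transcription factors. Capitals mark each match on either strand.
TLR8 promoter: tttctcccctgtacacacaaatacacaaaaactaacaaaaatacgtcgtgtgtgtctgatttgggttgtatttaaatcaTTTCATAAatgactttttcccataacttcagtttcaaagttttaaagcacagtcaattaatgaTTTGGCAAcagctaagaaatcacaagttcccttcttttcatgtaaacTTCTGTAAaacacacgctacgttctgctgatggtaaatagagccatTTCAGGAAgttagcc
TLR6 promoter: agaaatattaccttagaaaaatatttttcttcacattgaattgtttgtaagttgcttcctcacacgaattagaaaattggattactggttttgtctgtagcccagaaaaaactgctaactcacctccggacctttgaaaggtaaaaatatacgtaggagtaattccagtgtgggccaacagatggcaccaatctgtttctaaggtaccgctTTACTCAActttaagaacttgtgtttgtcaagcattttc
The TLR8 window held 4 matches and the TLR6 window held 2, the second of them after the start, while 36.8% of all 35116 promoters of the same length held at least 1. The core GAGGAA recognised by the myeloid factor PU.1 occurred in 4 of the 7 windows (TLR4 with 4 matches, TLR6, TLR9 and MYD88), against 27.9% of all promoters. The NF-kB motif was found in the windows of TLR2 and TLR5 and in 25.6% of all promoters. TGANTCA of AP-1 was found in that of TLR9 (7.71% of all) and the interferon-stimulated response motif in that of MYD88 (3.57% of all). All motifs were searched on both strands and may overlap one another, and a match describes letters only.

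Libraries of 8p held between 14972069 and 16210861 counts and control libraries between 18834611 and 23485628. Mitochondrially encoded genes took 8.80% ± 2.07 of the counts with 8p and 1.77% ± 0.132 in controls (SD, n = 3 each). Over all tested genes, 88.5% of the variance lay along a first principal component that split 8p from control, and 4.61% along a second on which 8p replicate 2 stood away from replicates 1 and 3. In edgeR's quasi-likelihood test, 13822 genes passed the filter on low counts, and 37.9% of them were higher and 36.9% lower with 8p at an adjusted p under 0.05. A call in either direction was therefore common among all genes, and the median log2 fold change was 0.03. Levels below are given as CPM, a gene's counts relative to its library's total after TMM scaling, and every fold change is of 8p over control. Levels in bulk RNA cannot tell a change in the number of cells of a type from a change in RNA per cell.

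Toll-like receptor transcripts were higher with 8p for every receptor that could be tested, by 1.57-fold for TLR2 and 1.58-fold for TLR4, by 4.56-fold for TLR6 and 4.76-fold for TLR1, and by 21.4-fold for TLR8. TLR5 and TLR7, which were near the detection limit in controls, had fitted folds of 24.8 and 26.4. LY96 was 5.99-fold higher and MYD88 1.37-fold higher. Counted together, 9 of the 10 genes were tested and 9 were higher, against 37.9% of all genes tested, and none was lower. In 9 of the 10 the libraries of the 2 groups did not overlap, with 8p higher, against 38.9% of all tested genes. TLR5 and TLR7 passed the filter only through their 8p libraries, so that a difference was built into their selection, whereas the other tested genes passed it in both groups.

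**Figure D1:**
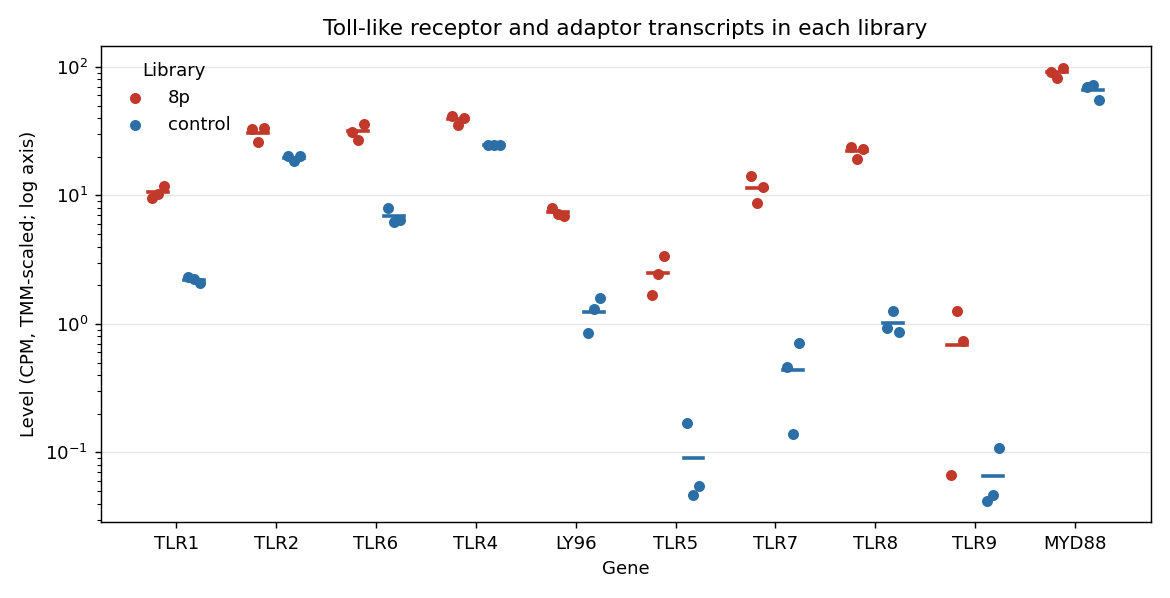
Level of each of the 10 genes in every library, in CPM on a log axis, with 8p (red) left of control (blue) and a bar at each group's mean of 3 libraries. The groups are apart for every gene except TLR9, for which 8p replicate 1 (0.067 CPM) lies among the controls.

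TLR2 (chr4:153684070-153705702, plus strand) is the receptor common to both lipopeptide-sensing pairs. It stood at 32.9, 25.8 and 33.7 CPM in the 8p libraries, against 20.1, 18.4 and 20.1 CPM in the control libraries. The groups did not overlap, although the lowest 8p library, replicate 2, was closer to the highest control than to the other 8p libraries. TLR2 rose by 0.65 on the log2 scale (SE 0.11, edgeR adjusted p = 8.54e-05).

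TLR1, which pairs with TLR2 to sense triacylated lipopeptides, had 9.58, 10.3 and 11.8 CPM in the 8p libraries, against 2.32, 2.24 and 2.07 CPM in the control libraries. All 8p libraries lay far above all controls, and the controls were close together. Its log2 fold change was 2.25 (SE 0.18, edgeR adjusted p = 1.76e-08). TLR6, which pairs with TLR2 to sense diacylated lipopeptides, had 31.3, 27.0 and 36.1 CPM in the 8p libraries, against 8.01, 6.17 and 6.42 CPM in the control libraries. Again no library of one group reached the other. The log2 fold change of TLR6 was 2.19 (SE 0.14, edgeR adjusted p = 1.38e-09), close to that of TLR1.

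GENCODE 29 gives TLR1 (chr4:38790677-38856817) and TLR6 (chr4:38823715-38856817) the same upstream end on the minus strand, where they share an exon stretch of 57 bases. The promoter bases shown for TLR6 lie directly before that end, so they precede TLR1 in this annotation as well. The TLR6 to TLR1 ratio per length was 2.46, 1.97 and 2.30 in the 8p libraries, against 2.60, 2.07 and 2.33 in the control libraries. The ratios of the 2 groups overlapped, with a difference in mean log2 ratio of -0.06 (exact permutation test, two-sided, p = 0.7, where 0.1 is the smallest p that 3 against 3 libraries allow). The part of reads from shared sequence in this likeness was not tested.

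The third gene of that cluster, TLR10 (chr4:38772239-38782990), is a receptor without an agreed ligand. It had 2, 24 and 7 counts in the 8p libraries and 0 counts in each control library. With the 8p counts taken as exact and the controls set to 3 counts in all, the ratio was 15.0, and 6.38 without 8p replicate 2. Most of its counts came from that 1 library, and it did not pass the filter. The nearest protein-coding gene on one side of the cluster, KLF3, averaged 2.00 ± 0.703 CPM with 8p and 1.39 ± 0.359 CPM in controls and did not pass the test (edgeR adjusted p = 0.203). FAM114A1, the nearest on the other side, 10859 bases away, averaged 1.26 ± 0.459 CPM with 8p and 0.510 ± 0.143 CPM in controls (log2 fold change 1.28, edgeR adjusted p = 0.0148). That call was lost with DESeq2 (adjusted p = 0.0920), without 8p replicate 3 (edgeR adjusted p = 0.0634) and without control replicate 2 (0.0804) or 3 (0.0659).

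TLR4, the signalling chain of the lipopolysaccharide receptor (chr9:117704175-117724730, plus strand), stood at 41.6, 35.5 and 40.2 CPM in the 8p libraries, against 24.8, 24.7 and 24.7 CPM in the control libraries. The controls were nearly equal and all lay below the 8p libraries. TLR4 rose by 0.66 on the log2 scale (SE 0.09, edgeR adjusted p = 8.96e-06).

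LY96 encodes the soluble protein that holds lipopolysaccharide in its pocket and binds the outer part of TLR4 (chromosome 8, 73991352 to 74029087, plus strand). Its level was 7.99, 7.19 and 6.95 CPM in the 8p libraries, against 0.843, 1.31 and 1.58 CPM in the control libraries. The 8p values were tight and the controls spread about a lower level, without overlap. The log2 fold change was 2.58 (SE 0.25, edgeR adjusted p = 1.32e-07), larger than that of TLR4. Within a library, the ratio of LY96 to TLR4 per length was 4.20, 4.43 and 3.78 in the 8p libraries, against 0.744, 1.16 and 1.40 in the control libraries. The mean log2 ratio was 2.05 ± 0.117 with 8p and 0.09 ± 0.468 in controls (SD, n = 3 each), a difference of 1.96 without overlap (exact permutation test, two-sided, p = 0.1, the smallest possible). A ratio within a library does not depend on library scaling, but it does depend on gene length. LY96 exons cover 607 bases and those of TLR4 13272 bases, and transcripts shorter than the full exon set would change the level of the ratio. The difference between groups would stay the same only if both groups used the same transcripts, which was not examined.

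TLR5, the flagellin receptor (chr1:223109406-223143282, minus strand), was close to absent in controls. It had 25, 41 and 50 counts in the 8p libraries (1.66, 2.46 and 3.37 CPM), against 4, 1 and 1 counts in the control libraries (0.169, 0.047 and 0.054 CPM). All 8p libraries exceeded all controls. The fitted log2 fold change was 4.63 (SE 0.54, edgeR adjusted p = 1.28e-06). Summed over libraries, the ratio was 26.4 with an exact binomial 95% interval of 11.8 to 73.4, which covers counting error only.

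Among the endosomal receptors, TLR8 (chrX:12906620-12923169, plus strand) was the one above the filter in every library of both groups. It stood at 24.0, 19.4 and 22.9 CPM in the 8p libraries, against 0.928, 1.26 and 0.871 CPM in the control libraries. Its groups were wide apart. The log2 fold change was 4.42 (SE 0.19, edgeR adjusted p = 9.18e-12), higher than that of 99.2% of all tested genes.

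TLR7 (chrX:12867083-12890380, plus strand) lies 16239 bases upstream of TLR8. It had 212, 145 and 171 counts in the 8p libraries (14.1, 8.69 and 11.5 CPM), against 11, 3 and 13 counts in the control libraries (0.464, 0.140 and 0.707 CPM). The 8p libraries were all far above the controls, and replicate 2 was the lowest of its group on both sides. The log2 fold change was 4.72 (SE 0.33, edgeR adjusted p = 3.66e-09). The counting ratio was 26.7, with an exact binomial 95% interval of 18.1 to 40.9. Of the nearest protein-coding genes outside this pair, PRPS2, an enzyme of nucleotide precursor synthesis, averaged 45.3 ± 4.03 CPM with 8p and 102 ± 3.63 CPM in controls (log2 fold change -1.18, edgeR adjusted p = 2.84e-09). TMSB4X, an actin-binding peptide, averaged 2807 ± 71.1 CPM with 8p and 3264 ± 355 CPM in controls (log2 fold change -0.22, edgeR adjusted p = 0.0329), but this call was lost under 9 of 18 alternatives. Its adjusted p was 0.0608 without 8p replicate 1, 0.0879 without 8p replicate 3, 0.0527 without control replicate 3 and 0.758 with upper quartile scaling (edgeR).

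TLR9 (chr3:52221080-52226163, minus strand) did not pass the filter. It had 1, 21 and 11 counts in the 8p libraries (0.067, 1.26 and 0.742 CPM), against 1, 1 and 2 counts in the control libraries (0.042, 0.047 and 0.109 CPM). The groups overlapped, since 8p replicate 1 was at the level of the controls. Its counting ratio was 11.3 (exact binomial 95% interval 4.00 to 43.7), and 6.38 without 8p replicate 2, the library that also held most TLR10 counts. With no filter the log2 fold change was 3.20 (edgeR adjusted p = 0.00201), and with DESeq2 it was 3.36 (adjusted p = 0.0138). The overlapping gene AC097637.1 covers 86.3% of the TLR9 exon bases on the same strand and had no count in any library. Reads from the shared bases cannot be assigned to TLR9 alone, and the treatment of such reads in the authors' counting is not stated in the labels, so the TLR9 counts may rest on the 13.7% of its exons that are its own.

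MYD88, the adaptor that these receptors share (chr3:38138478-38143022, plus strand), had the highest level per kilobase of the 10 genes in every library. It stood at 91.5, 81.6 and 98.8 CPM in the 8p libraries, against 70.2, 72.8 and 54.8 CPM in the control libraries. The groups did not overlap, and control replicate 3 was lower than the other controls. The log2 fold change of 0.46 (SE 0.10, edgeR adjusted p = 9.01e-04) was the smallest of the tested members and exceeded that of 65.0% of all tested genes.

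**Figure D2:**
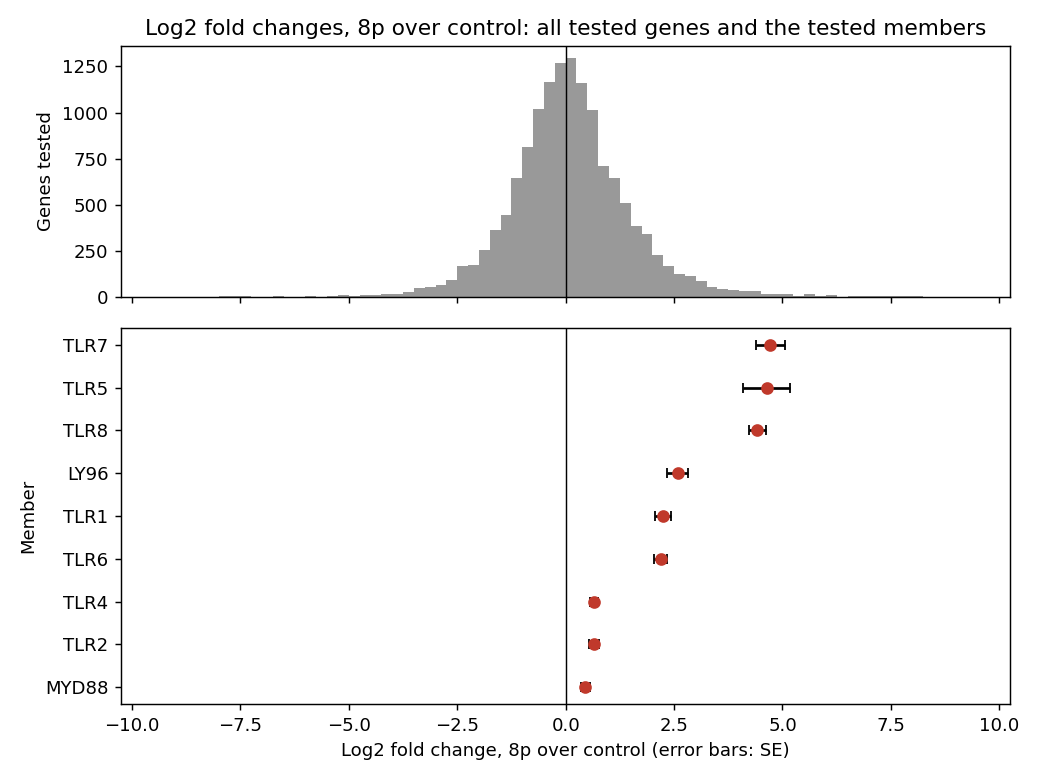
Upper panel: number of tested genes by log2 fold change of 8p over control, for all 13822 genes. Lower panel: log2 fold change of the 9 tested members with its standard error, which runs between 0.46 for MYD88 and 4.72 for TLR7, all right of 0.

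The fold changes fell at different places in the distribution of all tested genes. TLR5, TLR7 and TLR8 were at the 99.3rd, 99.3rd and 99.2nd percentiles. LY96, TLR1 and TLR6 were at the 95.7th, 94.2nd and 93.7th, and TLR4 and TLR2 were at the 71.2nd and 71.0th. For TLR5 and TLR7 this place was helped by their passing the filter through 8p libraries alone. The 8p replicate 2 library had the lowest level of its group in 6 of the 10 members and the highest in 1, TLR9.

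Per kilobase of exon, the order of levels differed between the groups. With 8p it ran MYD88 (22.7 ± 2.16 CPM per kb), LY96 (12.2 ± 0.894), TLR2 (5.90 ± 0.827), TLR6 (5.21 ± 0.756), TLR8 (5.07 ± 0.555), TLR4 (2.95 ± 0.242), TLR1 (2.33 ± 0.250), TLR7 (2.20 ± 0.520), TLR5 (0.322 ± 0.110) and TLR9 (0.178 ± 0.154). In controls it ran MYD88 (16.5 ± 2.43 CPM per kb), TLR2 (3.75 ± 0.189), LY96 (2.05 ± 0.612), TLR4 (1.86 ± 0.00529), TLR6 (1.14 ± 0.165), TLR1 (0.487 ± 0.0284), TLR8 (0.234 ± 0.0485), TLR7 (0.0839 ± 0.0546), TLR9 (0.0170 ± 0.00962) and TLR5 (0.0116 ± 0.00879; SD, n = 3 in each group). With 8p, the libraries of TLR2 and TLR6, of TLR6 and TLR8, of TLR1 and TLR7 and of TLR5 and TLR9 overlapped, so these neighbours were not separated. In controls, LY96 and TLR4, TLR7 and TLR9, and TLR9 and TLR5 overlapped in the same way. The place of TLR9 depends on which exon bases its counts came from: over its own 529 bases in place of all 3870, its level would be 1.30 ± 1.13 CPM per kb with 8p, above the mean of TLR5, and 0.125 ± 0.0704 CPM per kb in controls, above the mean of TLR7.

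The make-up of the receptor transcripts within each library shows the same data without any scaling between libraries. Each receptor's counts per kilobase were divided by the sum over the 8 receptors. TLR2 made up 25.0%, 23.4% and 24.7% of the sum in the 8p libraries, against 48.8%, 48.7% and 50.7% in the control libraries. TLR8 made up 21.9%, 21.1% and 20.1% in the 8p libraries, against 2.70%, 4.00% and 2.63% in the control libraries. The share of TLR2 in 8p libraries was thus lower and that of TLR8 higher, each without overlap, although both transcripts were higher in CPM.

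TLR4 accounted for 12.2% ± 0.573 of the sum with 8p and 24.6% ± 1.04 in controls. TLR6 accounted for 21.5% ± 1.16 with 8p and 15.0% ± 1.60 in controls, and TLR1 for 9.70% ± 1.20 with 8p and 6.43% ± 0.419 in controls. TLR7 accounted for 9.04% ± 1.51 with 8p and 1.09% ± 0.707 in controls. The RNA and DNA sensors TLR7, TLR8 and TLR9 together held 30.8% ± 1.70 with 8p and 4.43% ± 0.421 in controls, while TLR1, TLR2 and TLR6 together held 55.6% ± 1.72 with 8p and 70.8% ± 1.23 in controls (SD, n = 3 each). For all receptors except TLR9, whose groups overlapped (exact permutation p = 0.4), the shares of the groups did not overlap (exact permutation test, two-sided, p = 0.1, the smallest possible, and 0.114 after Benjamini-Hochberg adjustment over the 8 receptors), so that none could reach 0.05 in this design. With TLR9 taken over its own exon bases, its share would be 5.29% ± 4.89 with 8p and 1.62% ± 0.894 in controls, and TLR7, TLR8 and TLR9 together would hold 34.0% ± 2.29 with 8p and 5.76% ± 1.10 in controls.

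**Figure D3:**
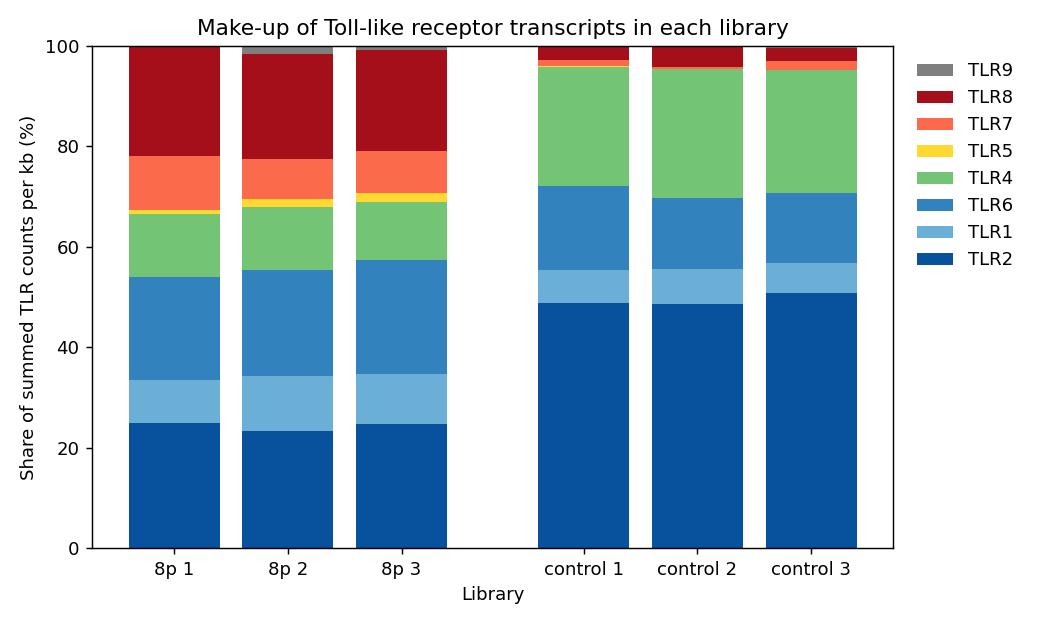
Share of each of the 8 receptors in the summed receptor counts per kilobase, in percent, for each 8p library (left) and each control library (right). TLR7, TLR8 and TLR9 (reds and grey) hold 29.3% to 32.7% of the sum in the 8p libraries and 3.96% to 4.78% in the control libraries.

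The summed level of the 8 receptors was 25.2, 21.1 and 26.2 CPM per kb in the 8p libraries, against 7.90, 7.24 and 7.61 CPM per kb in the control libraries. MYD88 was at 0.911, 0.969 and 0.946 times this sum in the 8p libraries, against 2.23, 2.52 and 1.81 times in the control libraries. The mean log2 ratio of MYD88 to the receptors was -0.09 ± 0.045 with 8p and 1.11 ± 0.242 in controls (SD, n = 3 each), a difference of -1.20 without overlap (exact permutation test, two-sided, p = 0.1, the smallest possible). Whether such a ratio lies above or below 1 depends on the exon lengths used, as for LY96 and TLR4, and with counts not divided by length the difference between groups was -0.96.

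**Figure D4:**
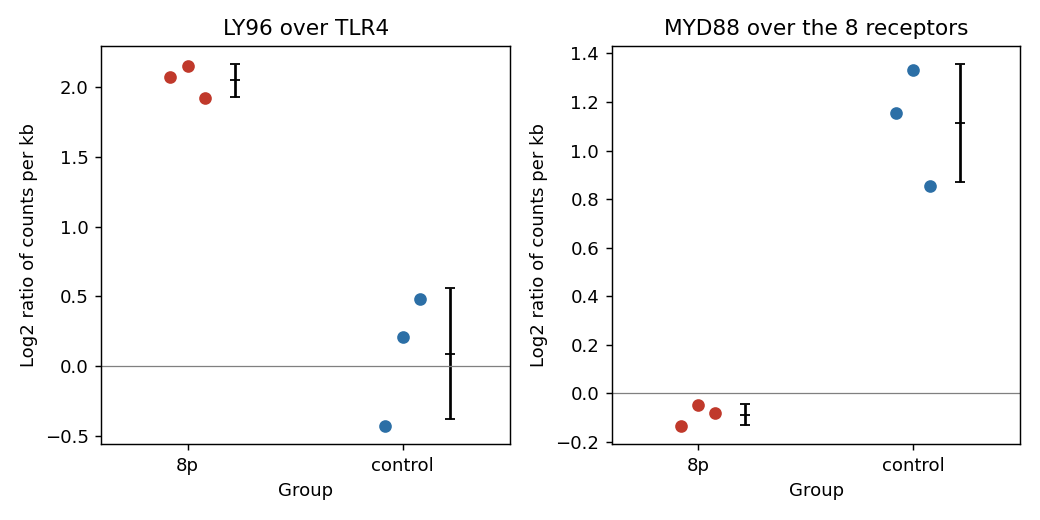
Log2 ratio of LY96 to TLR4 (left panel) and of MYD88 to the sum of the 8 receptors (right panel) per kilobase in each library, with 8p left of control and the mean and SD of 3 libraries beside the points. The LY96 ratio is higher with 8p (2.05 against 0.09) and the MYD88 ratio lower (-0.09 against 1.11), with no overlap in either panel.

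The 9 lists of other pathway genes were also chosen with earlier results of these data known. They held 87 genes, of which 65 were tested. Of these, 39 were higher and 14 lower with 8p, 12 did not pass the threshold, and the median log2 fold change was 0.61, against 37.9% higher, 36.9% lower and a median of 0.03 over all tested genes. Of the 39 higher genes, 3 (SARM1, PELI2 and IL1B, named after their values were seen) had no control library over the filter's cutoff and were tested through their 8p libraries alone, as TLR5 was. Control replicate 2 of CD14 (11 counts) and control replicate 3 of PTGS2 (10 counts) also lay under that cutoff. As for TLR7, the controls of CD14 or of PTGS2, named after its value was seen, would not have passed the filter alone. The counts that follow, list by list, are to be read against the same shares of all genes.

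Among co-receptors and ligand carriers, 4 of 5 tested genes were higher and 1 was lower, with a median log2 fold change of 1.90. CD36, a scavenger receptor that works with TLR2 and TLR6, averaged 177 ± 0.835 CPM with 8p and 13.1 ± 1.12 CPM in controls (log2 fold change 3.76, SE 0.08, edgeR adjusted p = 1.92e-14). LY86 (MD-1), a relative of LY96 that binds the receptor-like protein CD180, averaged 244 ± 23.7 CPM with 8p and 65.7 ± 8.87 CPM in controls, and CD180, named after its value was seen, averaged 24.9 ± 2.40 CPM with 8p and 12.3 ± 1.36 CPM in controls. CD14, which hands lipopolysaccharide to TLR4 and LY96, was low in both groups, at 3.33 ± 0.860 CPM with 8p and 0.672 ± 0.182 CPM in controls. Its log2 fold change was 2.31 (SE 0.34, edgeR adjusted p = 1.92e-05), and its controls alone would not have passed the filter. HMGB1, a nuclear protein that can act as a TLR ligand outside the cell, was the 1 that fell (log2 fold change -1.55). LBP, the serum carrier of lipopolysaccharide, had no count in any library.

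Genes for receptor folding, trafficking and processing included 8 of 11 tested that were higher, 1 that was lower and 2 that did not pass, with a median log2 fold change of 0.71. SLC15A4, a lysosomal histidine and peptide transporter needed for TLR7 and TLR9 signalling, averaged 464 ± 19.4 CPM with 8p and 55.4 ± 2.89 CPM in controls (log2 fold change 3.07, SE 0.07, edgeR adjusted p = 3.62e-14). Its relative SLC15A3 averaged 43.3 ± 0.823 CPM with 8p and 9.21 ± 1.10 CPM in controls. CTSK, a lysosomal cathepsin, averaged 15.3 ± 1.52 CPM with 8p and 2.71 ± 0.405 CPM in controls. UNC93B1, the chaperone that carries the endosomal receptors out of the endoplasmic reticulum, was abundant in both groups, at 164 ± 3.11 CPM with 8p and 135 ± 8.39 CPM in controls (log2 fold change 0.29, edgeR adjusted p = 0.00142, lost at 0.0670 with no filter). The 1 lower gene, named after its value was seen, was HSP90B1 (gp96), the folding chaperone of most Toll-like receptors, at 316 ± 18.5 CPM with 8p and 541 ± 43.3 CPM in controls (log2 fold change -0.78).

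Of the other adaptors, 4 of 5 were tested, 2 were higher and 1 was lower, too few to set against the 37.9% and 36.9% of all tested genes. TIRAP (MAL), which bridges MYD88 to TLR2 and TLR4, averaged 5.64 ± 0.793 CPM with 8p and 2.17 ± 0.0952 CPM in controls (log2 fold change 1.37, SE 0.22, edgeR adjusted p = 3.61e-05), but an antisense gene on the other strand held 32.3% as many counts and reads could not be told apart without strand. TICAM1 (TRIF), the adaptor of the MYD88-independent branch, averaged 19.9 ± 1.71 CPM with 8p and 16.7 ± 0.735 CPM in controls and did not pass the threshold (log2 fold change 0.25, edgeR adjusted p = 0.0535), though it did under 5 of 18 alternatives. SARM1, whose call was helped by its passing the filter through 8p libraries alone, had 39 counts over the 8p libraries and 1 over the controls, a ratio of 53.2 with an exact binomial 95% interval of 9 to 2.16e+03. PIK3AP1 (BCAP), a B-cell and myeloid adaptor of phosphoinositide signalling, fell by 0.25 on the log2 scale, which did not hold under upper quartile scaling (adjusted p = 0.417). TICAM2, the partner of TICAM1 at TLR4, had no count in any library. Whether its exons overlap another gene on the same strand, as those of TLR9 do, was not examined. Its absence from the counts therefore does not show that it was not expressed.

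Of 22 tested kinases and ubiquitin ligases downstream of MYD88 and TICAM1, 9 were higher (PELI2 among them), 7 were lower and 6 did not pass. These counts are near the 37.9% higher and 36.9% lower of all tested genes, and the median log2 fold change was 0.03 in both. IRAK4, the kinase recruited directly by MYD88, averaged 60.2 ± 2.01 CPM with 8p and 37.5 ± 3.25 CPM in controls (log2 fold change 0.68, SE 0.09, edgeR adjusted p = 3.03e-06). MAP3K8 (TPL2), which activates ERK signalling below these receptors, rose by 1.99 on the log2 scale. ECSIT, an adaptor of TRAF6 signalling that is also needed for mitochondrial complex I, and UBE2N (UBC13), the enzyme that builds ubiquitin chains with TRAF6, changed by -1.48 and -1.45 on the log2 scale. Exons of UBE2N overlap NUDT4 on the other strand, which held 38.5% as many counts.

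Interferon regulatory factors were higher in 4 of 5 cases and lower in 1, against 37.9% higher and 36.9% lower of all tested genes, with a median log2 fold change of 0.82. IRF5, which acts below MYD88 in monocytes, averaged 132 ± 5.67 CPM with 8p and 32.0 ± 0.982 CPM in controls (log2 fold change 2.04, SE 0.07, edgeR adjusted p = 2.12e-12). IRF7, the factor of interferon induction below TLR7 and TLR9, averaged 43.8 ± 4.89 CPM with 8p and 12.9 ± 0.781 CPM in controls, and IRF1 averaged 32.4 ± 2.92 CPM with 8p and 18.3 ± 1.32 CPM in controls. IRF8 was the fourth higher gene and IRF3 the lower one, both named after their values were seen. Under upper quartile scaling no interferon regulatory factor was lower.

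Negative regulators were higher in 6 of 8 tested cases and lower in 1, against 37.9% higher and 36.9% lower of all tested genes, with a median log2 fold change of 0.54. CYLD, a deubiquitinase, rose by 1.53, IRAK3 (IRAK-M), which blocks release of the IRAK kinases from the receptor complex in monocytes, by 0.91 and SIGIRR, an inhibitory receptor, by 0.61 on the log2 scale. TNFAIP3 (A20), the lower one and named after its value was seen, was at 20.8 ± 0.471 CPM with 8p and 27.6 ± 2.29 CPM in controls, and no gene of the list was lower under upper quartile scaling. Of 6 listed genes of the interleukin 1 receptor family, only IL1RAP was tested, and it fell by 1.14 on the log2 scale.

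Genes commonly induced by Toll-like receptor ligands in monocytes were mostly under the filter: 9 of 20 were tested, of which 6 were higher (against 37.9% of all tested genes), 1 was lower (against 36.9%) and 2 did not pass. IL1B, one of the 6, was tested through its 8p libraries alone, and the 11 genes under the filter carry no call. CXCL8 (interleukin 8) averaged 46.9 ± 5.68 CPM with 8p and 5.22 ± 1.32 CPM in controls (log2 fold change 3.18, SE 0.15, edgeR adjusted p = 3.27e-11). NFKBIZ averaged 14.6 ± 1.22 CPM with 8p and 3.51 ± 0.410 CPM in controls, and the adhesion molecule ICAM1 averaged 6.34 ± 1.18 CPM with 8p and 2.03 ± 0.107 CPM in controls. TNF, at 23.2 ± 2.31 CPM with 8p and 25.9 ± 1.02 CPM in controls, did not pass (edgeR adjusted p = 0.162), and IL1RN, the natural inhibitor of interleukin 1, fell by 0.68 on the log2 scale; both were named after their values were seen. IL6 and IFNB1 had no count in any library.

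**Figure D5:**
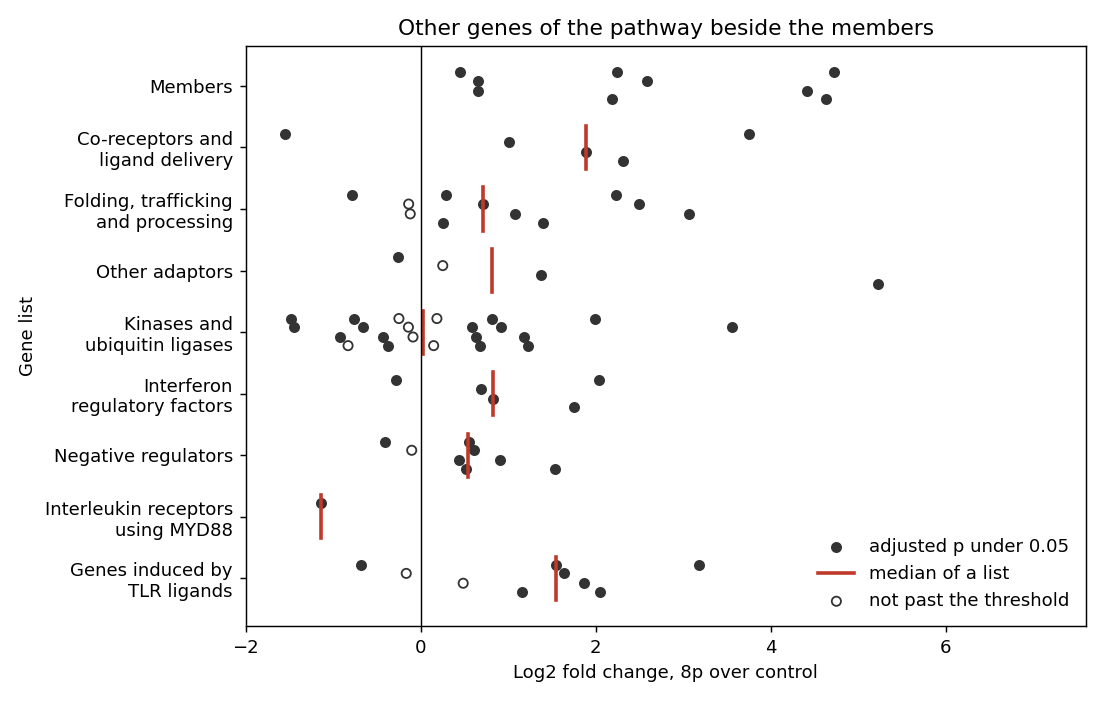
Log2 fold change of 8p over control for the tested members (top row) and for the tested genes of 8 pathway lists; filled points passed an adjusted p of 0.05, open points did not, and the red line is a list's median. The tested members all lie right of 0, while the kinase list is centred near it with a median of 0.03.

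Markers of several cell types moved with the receptors in part. Counts of higher and lower markers, here and in the next paragraph, are to be read against 37.9% higher and 36.9% lower of all tested genes. Of 10 monocyte markers, 8 were tested, 5 were higher and 2 lower, and their summed level was 3595 to 4293 CPM with 8p and 1151 to 1274 CPM in controls, of which LYZ made up most. The monocyte receptor CSF1R averaged 120 ± 7.76 CPM with 8p and 8.15 ± 1.00 CPM in controls, whereas FCGR1A averaged 8.11 ± 0.685 CPM with 8p and 51.9 ± 2.18 CPM in controls. Of 7 plasmacytoid dendritic cell markers, 3 were tested and 2 were higher, with a summed level of 140 to 149 CPM with 8p and 63.1 to 71.0 CPM in controls; IL3RA alone averaged 129 ± 4.32 CPM with 8p and 56.6 ± 4.98 CPM in controls. CLEC4C, which defines those cells, had no count with 8p, and JCHAIN had none in any library. Of 6 B-cell markers, 2 were tested, neither passed, and the sum was at most 2.29 CPM in any 8p library and at most 1.69 CPM in any control library, with PAX5 and BLK at 0 throughout.

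Markers of other cells changed too. Of 8 granulocyte markers, 6 were tested, 2 were higher and 3 lower, with a sum of 4823 to 4920 CPM with 8p and 6070 to 6534 CPM in controls. CSF3R, the larger of the 2 rises, averaged 391 ± 18.5 CPM with 8p and 84.4 ± 8.38 CPM in controls. The 3 lower were PRTN3, MPO and AZU1, with log2 fold changes of -0.93, -0.64 and -0.33. Of 8 T and NK cell markers, 5 were tested, 3 were higher and 2 lower, with a sum of 36.5 to 49.2 CPM with 8p and 36.3 to 38.1 CPM in controls. GNLY, 1 of the 3 higher, was tested through its 8p libraries alone. CD3D, 1 of the 2 lower, had 12, 4 and 6 counts in the 8p libraries, which alone would not have passed the filter. Of 7 epithelial and fibroblast markers, 3 were tested, 2 were higher and 1 lower, and EPCAM and COL1A2 were at 0. Their sum was 31.9 to 42.7 CPM with 8p and 10.2 to 10.9 CPM in controls. COL1A1 averaged 31.8 ± 5.99 CPM with 8p and 0.542 ± 0.297 CPM in controls. With 4 counts in control replicate 3, its controls alone would not have passed the filter. The same held for KRT8, the other higher one, which had 11 counts in control replicate 2. KRT18, the lower one, had a log2 fold change of -1.47. The part of these markers or of the mitochondrial share in the receptor differences was not tested. Leaving mitochondrially encoded genes out of the fit, after which 9 members were higher, acts only on library scaling and cannot address that part.

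The 3 protein-coding genes whose profile over the 6 libraries was nearest to that of TLR7, by Euclidean distance of mean-centred log2 CPM, were NUPR1 (1.06), RHBDF1 (1.07) and MGLL (1.10). NUPR1 averaged 7.91 ± 0.281 CPM with 8p and 0.251 ± 0.0570 CPM in controls, and MGLL averaged 29.7 ± 2.97 CPM with 8p and 0.998 ± 0.459 CPM in controls. RHBDF1 averaged 18.1 ± 2.18 CPM with 8p and 0.906 ± 0.489 CPM in controls. The distance rests on 6 libraries in 2 groups. TLR7 was taken because it had the largest rise of the tested members, and it passed the filter only through its 8p libraries. The mean of NUPR1 in controls also lay under the filter's cutoff of 0.571 CPM. A higher level with 8p was thus built into the search, and the likeness is a description only.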

How the data were processed

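mRNA was sequenced in 3 libraries of 8p and 3 of control. The authors deposited raw read counts per gene, whole numbers with no normalization, beside each gene's symbol, position and length. The submitters' processing notes list HISAT2 (2.0.5), featureCounts (1.5.0-p3), edgeR (3.22.5), DESeq2 (1.20.0) and build hg38; strand and multi-overlap settings are not given in the sources used here. Per the labels' protocols, mRNA was enriched by poly(A) capture or ribosomal RNA removal, without saying which. All 58735 gene positions matched GENCODE 29.

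Counts were analysed in R 4.3.3 with edgeR 4.0.16 (quasi-likelihood F test, TMM, filterByExpr with a minimum count of 10, Benjamini-Hochberg over 13822 genes, threshold 0.05). TMM scaling assumes that most genes do not change, and no spike-in was used. With 37.9% of tested genes called higher and 36.9% lower, that assumption was not met by the calls. Small fold changes, such as those of MYD88, TLR2 and TLR4, depend most on the scaling. SE is the log2 fold change divided by the square root of F. CPM per kb used the table's gene length. Shares and ratios were tested by exact permutation over libraries. Alternatives were DESeq2 1.42.0, limma-voom 3.58.1, other scalings, filters and thresholds, a replicate block, and each library left out. The code was tested on simulated counts. Sequences came from RefSeq (GRCh38.p14) and GENCODE 29, read with Python 3.11.15.

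The members and the lists were chosen with earlier results of these data known. Named genes were the 10 members, up to 3 called genes per list, by largest change, whose log2 CPM averaged 1 or more, and CD14, UNC93B1, TIRAP, TICAM1, TICAM2, IRAK4, TLR3 and TLR10 whatever their result; the nearest protein-coding genes beside the 2 TLR clusters were added after seeing the data. TLR3 had no count in any library. Libraries held between 14972069 and 23485628 counts, so that 3 counts, the floor used for a gene at 0, stand for 0.126 to 0.202 CPM. Intervals cover counting error only, and the floor covers that of the controls alone.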

Additional observations from a re-analysis of the deposited data

How the results depend on the processing

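The 8 receptors, MYD88 and LY96 kept a positive log2 fold change under every one of the 18 alternatives in which they were tested, and all calls held except that TLR2, TLR4 and MYD88 are under 2-fold, which leaves 6 members higher when a 2-fold change is also asked for. The number of members higher was 9 to 10 when a library was left out in turn, and 10 with DESeq2 or with no filter. The tenth was TLR9, which had no control library over the filter's cutoff. Where a library was left out, TLR9 was therefore tested through its 8p libraries alone, and a difference was built into its selection. Asking for 2-fold reduced the genes higher with 8p to 2883 and the genes lower to 2421. Upper quartile scaling shifted the median log2 fold change of all genes by 0.19 and gave 6240 genes higher and 4258 lower, and with no filter the shift was -0.12; fold changes of members under these settings are to be read against that shift. Across alternatives TLR7 ran between 4.28 and 5.15, TLR5 between 4.30 and 5.42, TLR8 between 4.31 and 4.61, and MYD88 between 0.32 and 0.64 on the log2 scale, with the highest adjusted p of MYD88 at 0.00862 without 8p replicate 3 (edgeR). With raw counts in place of counts per kilobase, the difference in share (8p minus control, percentage points) moved to -14.9 for TLR2, -18.6 for TLR4, 8.67 for TLR6 and 13.0 for TLR8, each in the direction it had per length. TLR9 over its own exon bases, an alternative chosen after seeing the data, gave share differences of 17.0 for TLR8 and 3.68 for TLR9 and a MYD88 difference of -1.25. Leaving out 1 library put the LY96 to TLR4 difference between 1.70 and 2.15 and the MYD88 difference between -1.33 and -1.09.

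Replicate numbers did not pair the samples: the correlations of deviations between same-numbered libraries were -0.0071, -0.0181 and -0.0432 over 13822 genes, and with the replicate block 5076 genes were higher, 5014 were lower and 9 members were higher. Depth limits TLR5, TLR7 and TLR9 in controls, where 1 to 13 counts per library stand behind each value.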
